A study of Dugesia japonica with 15 samples.

Results

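The deposited table of gene expression in the freshwater planarian *Dugesia japonica* names its rows with 2 prefixes, DJKW and Maker. The Maker gene models described here were chosen by 2 properties: an ID that starts with Maker, and a mean over all 15 libraries of at least 3 CPM, a row's count scaled to a common library total. These were 125 of 9793 Maker rows and of 38792 rows in all. The prefix resembles the name of MAKER, an annotation program that predicts gene models from genome sequence, but the source of either prefix is not given in the sources used here. Whether a Maker row covers a locus without a DJKW row could not be checked, and the files do not pair row IDs with gene names. Most members are therefore identified by their rank in mean CPM, from 1 (highest) to 125.

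Polyadenylated RNA came from groups of animals after control RNAi or RNA interference against DjTcf4, taken intact or as trunk fragments at 5 days post amputation (5 dpa). There were 4 control RNAi intact, 4 DjTcf4 RNAi intact, 4 control RNAi 5 dpa and 3 DjTcf4 RNAi 5 dpa libraries (replicates 1, 3 and 4), with 8136366 to 12224216 counts each. Animals of every group had received an RNAi treatment. Which row is DjTcf4 is not known from the sources used here, and its knockdown was therefore not checked. Nothing in the labels ties replicates to separate cultures, and p-values then measure only the spread between libraries, some of which may be technical. Values given per library are CPM after scaling with the trimmed mean of M-values, except the members' summed CPM, scaled by library total alone. A log2 change is a log2 ratio of fitted levels with its standard error (SE).

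Planarians replace lost tissue from neoblasts, the dividing stem cells of the adult body, whose progeny move to the wound and differentiate. TCF proteins are transcription factors that bind DNA and, in Wnt signalling, act with β-catenin to switch target genes on. In planarians Wnt signalling through β-catenin is known for setting head and tail identity during regeneration. In RNA from whole animals or fragments, fewer cells of a type and less RNA per cell cannot be told apart.

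DjTcf4 RNAi intact replicate 2 stood apart from its group. On the first principal component of all tested genes it scored 55.9, a value within the range of the 5 dpa libraries (15.6 to 56.0) and above the range of all other intact libraries (-69.2 to -31.4). On the second it scored 63.0, above both the 5 dpa libraries (-32.3 to 2.16) and the other intact libraries (-13.3 to 19.5). It therefore stood apart from the libraries of both stages. Results that rest on it are given with and without it.

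Few Maker rows were expressed. Of the 9793 Maker rows, 6502 (66.4%) had no count in any library, against 3964 of 28999 DJKW rows (13.7%). The level threshold was met by 1.28% of Maker rows and 44.3% of DJKW rows, which were 12833. All 125 members passed the filter on low counts, as did 426 Maker rows in total (4.35%). The values just inside the threshold were 3.01, 3.03 and 3.04 CPM, and those just outside were 2.91, 2.90 and 2.90 CPM. Since mean level chose the members, these figures are a description.

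The members were mostly of low abundance. Their median was 6.73 CPM, against 22.0 CPM in DJKW rows over the same threshold, and their maximum was 238 CPM, against 12442 CPM. By mean CPM, 48 members lay from 3 to 5, 30 from 5 to 10, 30 from 10 to 30, 12 from 30 to 100 and 5 at 100 or above. Together they took 0.219% to 0.291% of all counts in a library, and all Maker rows took 0.280% to 0.356%. The summed CPM of the members was 2450 ± 138 in control intact, 2515 ± 287 in DjTcf4 RNAi intact, 2288 ± 46.5 in control 5 dpa and 2265 ± 125 in DjTcf4 RNAi 5 dpa libraries (SD, n = 4, 4, 4 and 3). The highest sum, 2905 CPM, was in DjTcf4 RNAi intact replicate 2, and neighbouring groups in this order overlapped. These sums were not divided by the factors from the trimmed mean of M-values. Those factors were 0.991 to 1.04 in control intact and 0.947 to 0.994 in control 5 dpa libraries. Dividing by them would bring the sums of these control groups closer.

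**Figure D1:**
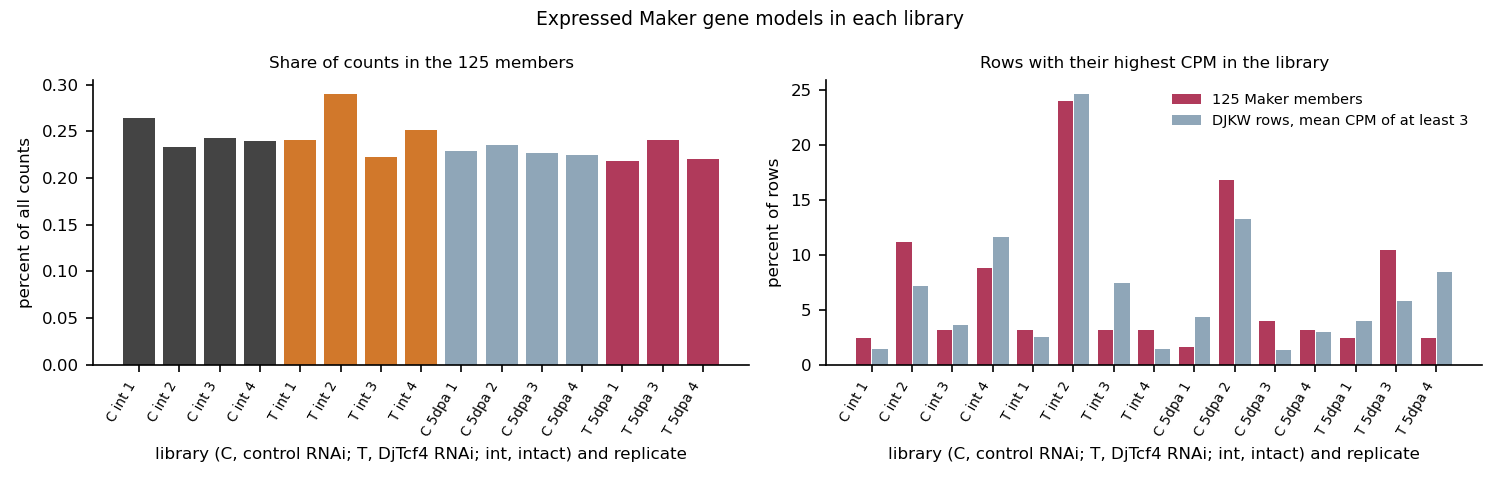
Left, percent of all counts held by the 125 members in each library, coloured by group. Right, percent of the members and of DJKW rows with a mean of at least 3 CPM that had their highest CPM in that library. DjTcf4 RNAi intact replicate 2 held the maximum of 24.0% of members and 24.7% of DJKW rows, more than any other library.

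Of the 125 members 41 (32.8%) had a fractional count in 1 or more libraries, against 19.0% of all 17094 tested rows. In DJKW rows, averaged over the 5 ranges of mean CPM with the members' numbers as weights, the share was 18.0%. The member share was the larger in each of the 5 ranges, from 29.2% against 21.2% at 3 to 5 CPM to 40.0% against 17.2% at 100 CPM and above. The difference was not tested. Gene-level expected counts can become fractional where reads match several genes. Where that splits reads of similar sequences, the levels of these 41 members are uncertain. In 10 of them every library had a fractional count.

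Averaged over all members, variation between replicates was close to that of DJKW rows of like abundance. The SD of log2 CPM within groups averaged 0.366 over the members and 0.365 over DJKW rows weighted to the same mean CPM. Without DjTcf4 RNAi intact replicate 2 the averages were 0.325 and 0.306. The members then varied more in each range from 5 CPM up, at 0.337 against 0.316, 0.285 against 0.239, 0.183 against 0.178 and 0.230 against 0.143. From 3 to 5 CPM the averages were 0.387 and 0.391. These differences were not tested. The SD ranged from 0.13 to 1.20 among the members.

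The first question was how the members changed after amputation in control animals, where a trunk fragment at 5 dpa is compared with an intact animal. Of the 125 members 34 (27.2%) were called, where 30.1% of all 17094 tested genes were (edgeR quasi-likelihood test, Benjamini-Hochberg adjusted p under 0.05). Higher levels at 5 dpa were called for 18 members (14.4%, background 14%) and lower levels for 16 (12.8%, background 16.1%), all near the share among tested genes. limma-voom called 56 members, where 47.4% of all genes were called. The median log2 change was 0.012 over the members and 0.036 over all tested genes, and the members ran from -2.61 to 1.12. Changes of at least 2-fold were called higher for 3 members and lower for 6, where the background was 1.12% and 10.1%.

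Members that fell gave the largest fold changes. Maker00022437 (rank 109) stood at 5.26, 5.78, 3.37 and 3.51 CPM in control intact replicates 1 to 4 and at 1.63, 2.23, 1.64 and 1.07 CPM in the control 5 dpa replicates. In DjTcf4 RNAi animals it stood at 4.43, 6.89, 5.06 and 4.44 CPM intact and at 1.33, 1.80 and 1.98 CPM at 5 dpa. Every 5 dpa library lay below every intact library. Its log2 change was -1.46 in control (SE 0.28, edgeR, adjusted p = 0.00241) and -1.61 with DjTcf4 RNAi (SE 0.31, edgeR, adjusted p = 0.00241).

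Maker00014801 (rank 34) was also lower in every 5 dpa library than in every intact library, at a higher level. Control intact libraries held 15.6, 14.5, 19.7 and 15.0 CPM and control 5 dpa libraries 8.33, 5.70, 7.21 and 7.18 CPM. With DjTcf4 RNAi the values were 19.7, 32.3, 18.1 and 20 CPM intact and 4.24, 5.40 and 6.78 CPM at 5 dpa. The highest value was in DjTcf4 RNAi intact replicate 2. It fell by 1.18 on the log2 scale in control (SE 0.21, edgeR, adjusted p = 0.00137) and by 2.03 with DjTcf4 RNAi (SE 0.23, edgeR, adjusted p = 2.87e-05). Without that library the fall with DjTcf4 RNAi was a log2 change of -1.82 (edgeR, adjusted p = 3.35e-06).

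The largest fall of any member was that of rank 48, whose counts were fractional in 7 libraries. It stood at 9.56, 17.7, 16.4 and 27.1 CPM in control intact and at 2.90, 1.73, 3.82 and 3.01 CPM in control 5 dpa libraries, a log2 change of -2.61 (SE 0.64, edgeR, adjusted p = 0.00945). In DjTcf4 RNAi intact replicates 1, 3 and 4 it was at 13.4, 20.8 and 11.8 CPM, and in replicate 2 it was at 0.70 CPM, the lowest of all 15 libraries. DjTcf4 RNAi 5 dpa libraries held 6.71, 3.39 and 2.15 CPM. The change after amputation with DjTcf4 RNAi was -1.51 (edgeR, adjusted p = 0.149), and -1.92 without replicate 2 (edgeR, adjusted p = 0.00278).

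The members of ranks 70 and 56, also with fractional counts, were likewise low in DjTcf4 RNAi intact replicate 2. Rank 70 ran from 6.84 to 12.6 CPM in control intact and from 1.73 to 2.84 CPM in control 5 dpa libraries, a log2 change of -2.22 (edgeR, adjusted p = 0.0042). Rank 56 ran from 7.81 to 17.0 CPM and from 3.1 to 6.01 CPM in these groups, a log2 change of -1.51 (edgeR, adjusted p = 0.0291). DjTcf4 RNAi intact replicate 2 held 1.5 CPM of rank 70 and 1.6 CPM of rank 56, while the other 3 libraries of its group held 6.99 to 12.1 and 8.67 to 16.4 CPM.

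Other members that fell did so by smaller amounts. Rank 87 had a log2 change of -1.15 (edgeR, adjusted p = 0.00819), rank 54 of -0.94 (0.00123), rank 83 of -0.91 (0.0118) and rank 93 of -0.90 (0.0219). For these 4 members no control 5 dpa library reached the lowest control intact library. The most abundant member, rank 1, stood at 319, 248, 312 and 278 CPM in control intact and at 185, 178, 177 and 210 CPM in control 5 dpa libraries. Its log2 change was -0.63 in control (edgeR, adjusted p = 0.0034) and -0.82 with DjTcf4 RNAi (edgeR, adjusted p = 0.00124), with counts fractional in 8 libraries. With RNAi it was at 272, 384, 250 and 263 CPM intact and at 151, 171 and 175 CPM at 5 dpa, again without overlap.

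Among members that rose, 10 of the 18 had whole counts in every library. Maker00007456 (rank 110) stood at 2.54, 3.43, 1.73 and 1.31 CPM in control intact and at 3.17, 4.33, 5.68 and 3.88 CPM in control 5 dpa libraries. With DjTcf4 RNAi it stood at 2.66, 4.59, 2.79 and 2.78 CPM intact and at 4.33, 4.13 and 3.44 CPM at 5 dpa. Control groups overlapped in 1 library each. Its log2 change was 0.92 in control (SE 0.30, edgeR, adjusted p = 0.0299) and 0.31 with DjTcf4 RNAi (SE 0.31, edgeR, adjusted p = 0.537). With DjTcf4 RNAi intact replicate 2 left out, the latter value was 0.52 (edgeR, adjusted p = 0.206).

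Maker00017294 (rank 52) stood at 6.05, 5.78, 7.71 and 7.03 CPM in control intact and at 10.1, 17.7, 10.5 and 11.5 CPM in control 5 dpa libraries, without overlap. In DjTcf4 RNAi animals the values were 7.58, 10.9, 8.67 and 3.97 CPM intact and 7.16, 8.90 and 16.0 CPM at 5 dpa, which overlapped. It rose by a log2 change of 0.90 in control (SE 0.29, edgeR, adjusted p = 0.0285), and the value with DjTcf4 RNAi was 0.47 (SE 0.31, edgeR, adjusted p = 0.324). The control calls of Maker00007456 and Maker00017294 ended in 5 of 23 alternatives each, all of which left out a control library. Without control intact replicate 4, control 5 dpa replicate 2 or control 5 dpa replicate 4 both calls were lost, Maker00007456 also without control intact or 5 dpa replicate 3, and Maker00017294 also without control intact replicate 1 or 2. Over the 23 alternatives the adjusted p ran from 0.00543 to 0.104 and from 0.00289 to 0.110.

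The 3 members that rose at least 2-fold all had fractional counts. Rank 20 stood at 22.6, 10.5, 17.4 and 13.5 CPM in control intact and at 36.1, 31.3, 37.5 and 34.1 CPM in control 5 dpa libraries (log2 change 1.11, SE 0.27, edgeR, adjusted p = 0.00732). Rank 36 had a log2 change of 1.09 (edgeR, adjusted p = 0.00959) and rank 108 of 1.12 (edgeR, adjusted p = 0.00945). Rank 5, whose ID number differs by 1 from that of rank 36, rose from 89.4, 84.0, 83.9 and 61.4 CPM to 188, 156, 136 and 106 CPM (log2 change 0.88, edgeR, adjusted p = 0.0234). In DjTcf4 RNAi intact libraries rank 5 was at 91.3, 216, 79.5 and 154 CPM, so that replicate 2 exceeded every control 5 dpa library.

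Other risers were smaller in size. Rank 16 went from between 24.7 and 28.6 CPM to between 45.0 and 49.6 CPM in control animals (log2 change 0.81, SE 0.15, edgeR, adjusted p = 0.00181), with no overlap. With DjTcf4 RNAi its 5 dpa libraries held 26.1, 35.7 and 40.5 CPM, all below the control 5 dpa libraries, a log2 difference of -0.47 between RNAi groups at 5 dpa that did not pass the test (edgeR, adjusted p = 1). Ranks 40, 41 and 99 had log2 changes of 0.78, 0.78 and 0.74 in control (edgeR, adjusted p = 0.0146, 0.0291 and 0.0176).

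**Figure D2:**
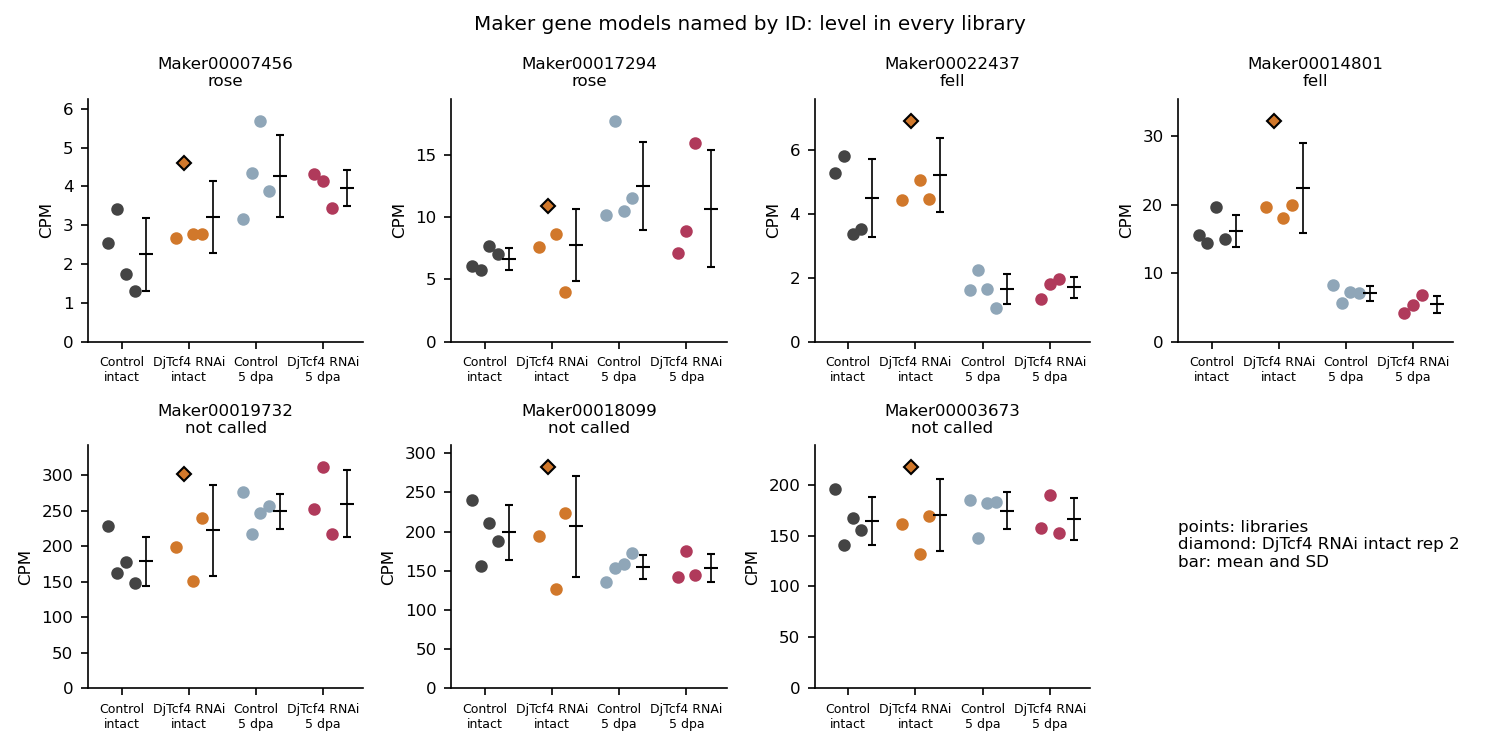
CPM of the 7 members given by ID in every library, by group. Points are libraries, the diamond is DjTcf4 RNAi intact replicate 2 and bars show the mean and SD. Maker00022437 and Maker00014801 are lower in all 7 libraries at 5 dpa than in all 8 intact libraries.

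Members without a called change included 3 of the 4 most abundant. Maker00003673 (rank 4) stood at 196, 140, 168 and 155 CPM in control intact, 162, 217, 132 and 169 CPM in DjTcf4 RNAi intact, 185, 147, 182 and 183 CPM in control 5 dpa and 157, 190 and 152 CPM in DjTcf4 RNAi 5 dpa libraries. All 4 ranges overlapped, and its log2 change after amputation in control was 0.084 (SE 0.14, edgeR, adjusted p = 0.692). Maker00019732 (rank 2) stood at 228, 162, 177 and 149 CPM in control intact and at 277, 217, 248 and 257 CPM in control 5 dpa libraries, which overlapped in 1 library each (log2 change 0.48, SE 0.18, edgeR, adjusted p = 0.0567). Maker00018099 (rank 3) stood at 240, 157, 211 and 188 CPM and at 136, 153, 158 and 172 CPM in these groups (log2 change -0.36, SE 0.19, edgeR, adjusted p = 0.146). Both rank 2 and rank 3 did pass the test when DjTcf4 RNAi intact replicate 2 was left out, with edgeR, adjusted p = 0.0277 and 0.0439. They also passed with limma-voom and with the compared groups alone, and rank 2 passed without control intact replicate 1 or DjTcf4 RNAi intact replicate 3.

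Members and DJKW rows of like abundance were called at similar rates overall. In control animals 27.2% of members were called, against 28.8% of DJKW rows weighted to the same mean CPM, and the difference of -1.62 percentage points was not tested. In the 10 to 30 CPM range 36.7% of 30 members were called higher and 6.67% lower, where DJKW rows had 14.6% and 18.0%. Among the 48 members at 3 to 5 CPM, 6.25% were called higher and 8.33% lower, where DJKW rows had 5.30% and 17.5%. In the other 3 ranges members were called higher at lower rates than DJKW rows, 3.33% against 8.36% from 5 to 10 CPM, 16.7% against 23.8% from 30 to 100 CPM and 20% against 32.3% above. They were called lower at 16.7% against 19.1%, 33.3% against 16.1% and 20% against 12.4% in these ranges, of which the last 2 hold 12 and 5 members. These differences were not tested. Changes of at least 2-fold were called for 7.20% of members and 12.6% of weighted DJKW rows. Calls were made for 17 of the 84 members with whole counts (20.2%) and for 17 of the 41 with fractional counts (41.5%), the latter including all 3 at least 2-fold higher and 4 of the 6 at least 2-fold lower. For the 47 members with a mean of at least 10 CPM the sign of the difference turned, with 44.7% called against 35.8% in DJKW rows.

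**Figure D3:**
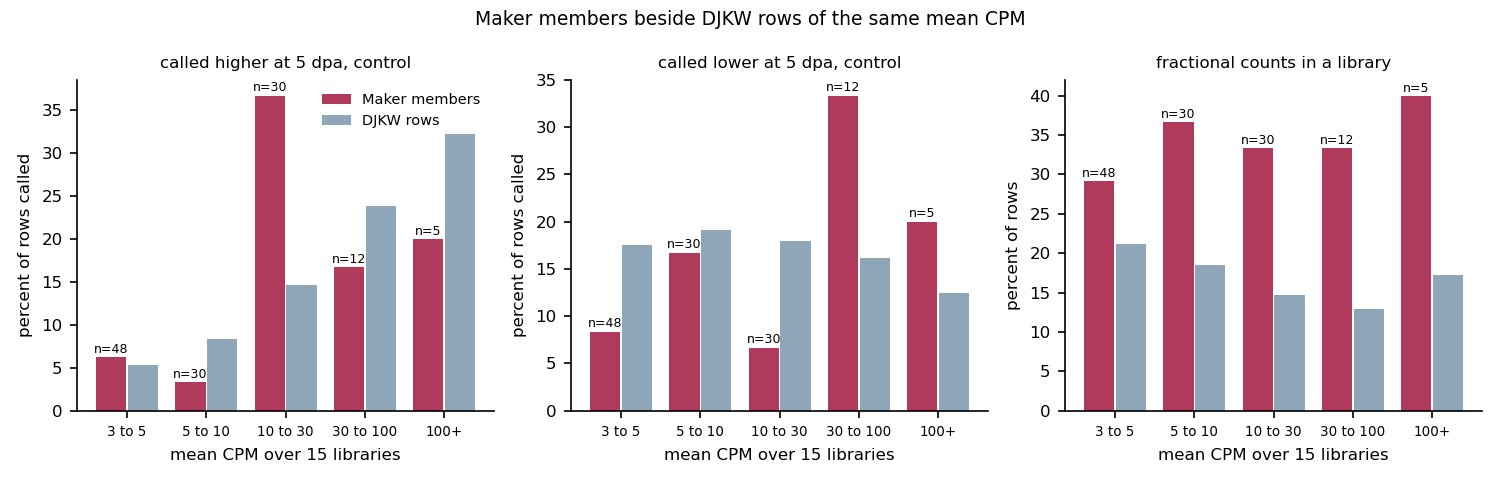
Percent of members and of DJKW rows called higher at 5 dpa in control animals (left), called lower (middle) and with a fractional count in any library (right), in 5 ranges of mean CPM; n is the number of members. In the range from 10 to 30 CPM, 36.7% of members and 14.6% of DJKW rows were called higher.

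After DjTcf4 RNAi the comparison of 5 dpa with intact animals called 17 members, where 13.5% of all genes were called. Of these 5 were higher (background 6.81%) and 12 lower (background 6.67%), and at 2-fold or more the numbers were 0 higher (background 0.872%) and 5 lower (background 3.69%). The sign was shared by both RNAi groups for 32 of the 34 members called in control (94.1%), where 98.5% of all genes called in control shared it. Both comparisons called 14 members (11.2%, background 10.2%), 5 higher (background 5.54%) and 9 lower (background 4.7%). The 14 are 41.2% of those called in control and 82.4% of those called after DjTcf4 RNAi, beside 34.1% and 76.0% over all genes, and the 2 comparisons share no library. Over all 125 members 74.4% had the same sign, against 80.0% of tested genes, and the fold changes correlated at 0.81 across members (Spearman 0.79, n = 125) and 0.76 across tested genes. Members are not independent replicates. Rank 108, with fractional counts in 2 libraries, was one of the exceptions, at 1.12 in control and -0.068 with DjTcf4 RNAi (edgeR, adjusted p = 0.902). With DjTcf4 RNAi intact replicate 2 left out, its value after DjTcf4 RNAi was 0.0069 (edgeR, adjusted p = 0.989), and 46 of 47 members called in control then shared the sign (97.9%, beside 98.9% over all genes).

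The number called with DjTcf4 RNAi rested on single libraries. Without DjTcf4 RNAi intact replicate 2, 41 members were called, where 36.6% of all genes were, 17 of them higher and 24 lower (background 17.3% and 19.3%). The control comparison does not use that library but shares the estimate of spread with it, and it then called 47 members (background 41.2%), 21 higher and 26 lower (background 18.4% and 22.7%). In that setting 30 members (24%, background 29.9%) were called in both, 12 higher and 18 lower (background 13.5% and 16.3%). The total after DjTcf4 RNAi was 11 without intact replicate 1, 5 dpa replicate 1 or 5 dpa replicate 4, where 8.99%, 10.7% and 6.5% of all genes were called. It was 9 without 5 dpa replicate 3, where 5.99% of all genes were. limma-voom called 48, where 40.9% of all genes were called. Without overlap between the groups 11 members were higher and 14 lower, beside 10.8% and 8.42% of all genes.

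**Figure D4:**
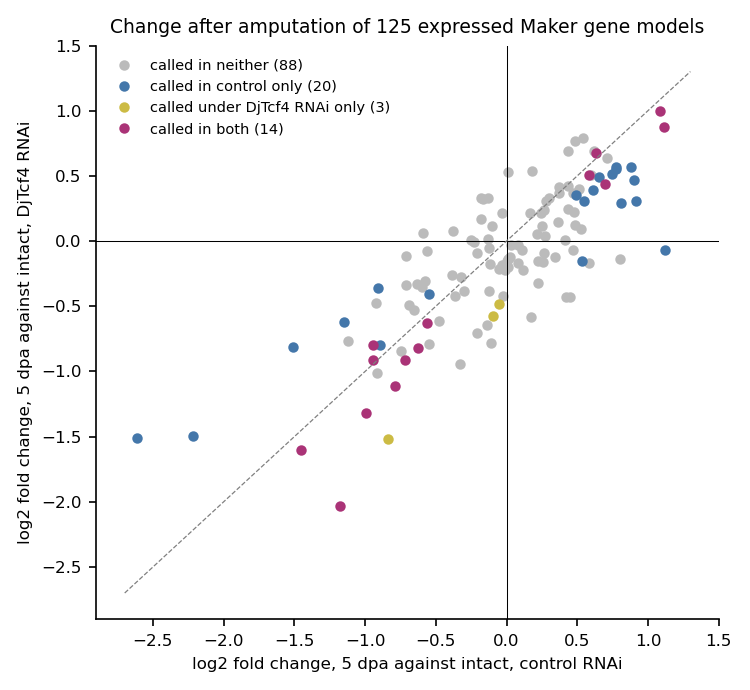
Log2 fold change of each of the 125 members between 5 dpa and intact animals under control RNAi (horizontal axis) and DjTcf4 RNAi (vertical axis), coloured by where it was called; the dashed line marks equal values. Of the members, 14 were called in both, and 88 in neither.

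The position of the DjTcf4 RNAi intact libraries was then read from the members called in control. Of the 18 that rose, DjTcf4 RNAi intact replicate 2 lay nearer to the control 5 dpa mean than to the control intact mean on the log2 scale in 15, while replicates 1, 3 and 4 did so in 3, 3 and 7. Of the 16 that fell, the numbers were 9 in replicate 2 and 5, 5 and 4 in replicates 1, 3 and 4. DjTcf4 RNAi 5 dpa libraries lay nearer to the control 5 dpa mean in 15 to 16 of 18 and 13 to 16 of 16. The shares over all genes called in control are not given here, so these counts are not results about the members. The first principal component of all tested genes also placed intact replicate 2 within the range of the 5 dpa libraries. In control animals every 5 dpa library lay above every intact library for 22 members and below for 18, beside 18.8% and 19.2% of all genes.

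The next question was whether DjTcf4 RNAi changed the members in intact animals or at 5 dpa. With all 15 libraries edgeR called 0 members in intact animals, where 0.0117% of all genes were called, and 0 at 5 dpa, where 0.0468% were. At an unadjusted p under 0.05 there were 14 members in intact animals (11.2%, against 7.01% of all genes) and 10 at 5 dpa (8%, against 3.24%). DJKW rows weighted to the same mean CPM had 6.99% and 3.05%. The 12 members at 30 to 100 CPM, which include ranks 8, 9, 10 and 12, had 41.7% at both stages, against 6.92% and 3.12%. Members had the lower share at 5 to 10 CPM in intact animals (0% against 7.29%) and at 100 CPM and above at 5 dpa (0% against 4.79%). These differences were not tested. DESeq2 and limma-voom each called 4 members lower and 0 higher in both comparisons, and they were the same 4 in each, of ranks 8, 9, 10 and 12. DESeq2 called 0.199% of genes lower in intact animals and 0.31% at 5 dpa, and limma-voom 0.222% and 0.234%. Without DjTcf4 RNAi intact replicate 2, edgeR called 3 of the 4 lower in intact animals (ranks 8, 9 and 10; 0.136% of all genes) and all 4 at 5 dpa (0.148% of all genes). No other member was called with RNAi in any of the 23 alternatives.

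These 4 members were singled out after their values were seen, by those calls. The ID numbers of ranks 8 and 10 lie within 10 of each other, and both members had fractional counts. Whether these 2 share reads or a locus was not tested, so the 4 may not be separate genes. All 4 were also called lower after amputation in control and with DjTcf4 RNAi. The RNAi and amputation comparisons share control libraries, so their values are given side by side and draw on the same samples.

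Rank 9, with whole counts in every library, had 4 groups that did not overlap at all. It stood at 79.5, 64.8, 82.9 and 77.0 CPM in control intact and at 46.5, 46.2, 51.2 and 46.5 CPM in DjTcf4 RNAi intact libraries. At 5 dpa it stood at 40.4, 36.3, 37.4 and 43.7 CPM in control and at 24.0, 28.5 and 23.3 CPM with DjTcf4 RNAi. The log2 change with RNAi was -0.68 in intact animals (SE 0.11, edgeR, adjusted p = 0.0736) and -0.64 at 5 dpa (SE 0.13, edgeR, adjusted p = 0.0840). Amputation gave -0.95 in control (edgeR, adjusted p = 7.18e-05) and -0.91 with RNAi (edgeR, adjusted p = 0.000172). DjTcf4 RNAi intact replicate 2 did not stand apart for this member.

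Rank 12, also with whole counts, stood at 65.4, 71.1, 60.7 and 75 CPM in control intact and at 30.7, 43.5, 54.6 and 36.3 CPM in DjTcf4 RNAi intact libraries. At 5 dpa it was at 37.1, 37.4, 31.0 and 31.3 CPM in control and at 20.3, 17.0 and 12.2 CPM with RNAi. RNAi and control libraries did not overlap at either stage, while DjTcf4 RNAi intact and control 5 dpa libraries did. The RNAi log2 changes were -0.72 in intact animals (SE 0.17, edgeR, adjusted p = 0.365) and -1.05 at 5 dpa (SE 0.20, edgeR, adjusted p = 0.0628). Amputation gave -0.99 in control (edgeR, adjusted p = 0.0013) and -1.32 with RNAi (edgeR, adjusted p = 0.000306).

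Rank 10, with fractional counts in 14 libraries, stood at 75.6, 53.9, 62.4 and 69.4 CPM in control intact and at 39.9, 52.8, 38 and 39.4 CPM in DjTcf4 RNAi intact libraries. At 5 dpa it was at 35.9, 31.3, 35.0 and 48.8 CPM in control and at 19.8, 21.4 and 18.0 CPM with RNAi. There was again no overlap between RNAi and control, and the nearest approach in intact animals was DjTcf4 RNAi replicate 2. The RNAi log2 changes were -0.62 in intact animals (SE 0.15, edgeR, adjusted p = 0.432) and -0.94 at 5 dpa (SE 0.17, edgeR, adjusted p = 0.0628). Without that library the intact value was -0.75 (edgeR, adjusted p = 0.0429).

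Rank 8, with fractional counts in all 15 libraries, stood at 109, 70.1, 88.5 and 89.0 CPM in control intact and at 50.7, 72.5, 49.2 and 52.0 CPM in DjTcf4 RNAi intact libraries. At 5 dpa it was at 48.2, 49.8, 53.1 and 65.3 CPM in control and at 26.8, 37.7 and 25.2 CPM with RNAi. In intact animals the groups overlapped through DjTcf4 RNAi replicate 2 alone, and at 5 dpa they did not overlap. The RNAi log2 changes were -0.67 (SE 0.17, edgeR, adjusted p = 0.432) and -0.86 (SE 0.19, edgeR, adjusted p = 0.163), and without that library -0.82 in intact animals (edgeR, adjusted p = 0.0369).

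Mean levels of the 4 members in DjTcf4 RNAi 5 dpa libraries were 33.5%, 33.2%, 30.2% and 24.3% of those in control intact libraries for ranks 8, 9, 10 and 12. By unadjusted p over all 17094 genes they stood at places 35, 3, 31 and 26 for RNAi in intact animals and at places 24, 16, 10 and 11 at 5 dpa. Since RNAi calls on the same counts chose the 4, these places are a description and not further evidence. The fall after amputation was called in each of 23 alternatives for every one of the 4, in control and with RNAi. The RNAi calls depended on the tool and on DjTcf4 RNAi intact replicate 2, and 1 or 2 of the 4 were also called under other scalings, without the count filter, with the compared groups alone, or without DjTcf4 RNAi intact replicate 3 or control 5 dpa replicate 2. In intact animals the adjusted p ran over the alternatives from 0.0162 to 0.900 for rank 8, from 8.33e-06 to 0.714 for rank 9, from 0.0191 to 0.900 for rank 10 and from 0.00475 to 0.900 for rank 12. At 5 dpa it ran from 0.0063 to 1 for rank 8, from 0.00185 to 0.833 for rank 9, from 0.00023 to 0.537 for rank 10 and from 0.000558 to 0.555 for rank 12. All of their log2 changes stayed below 0, but the alternatives reuse the same libraries and are not independent of the choice of the 4.

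**Figure D5:**
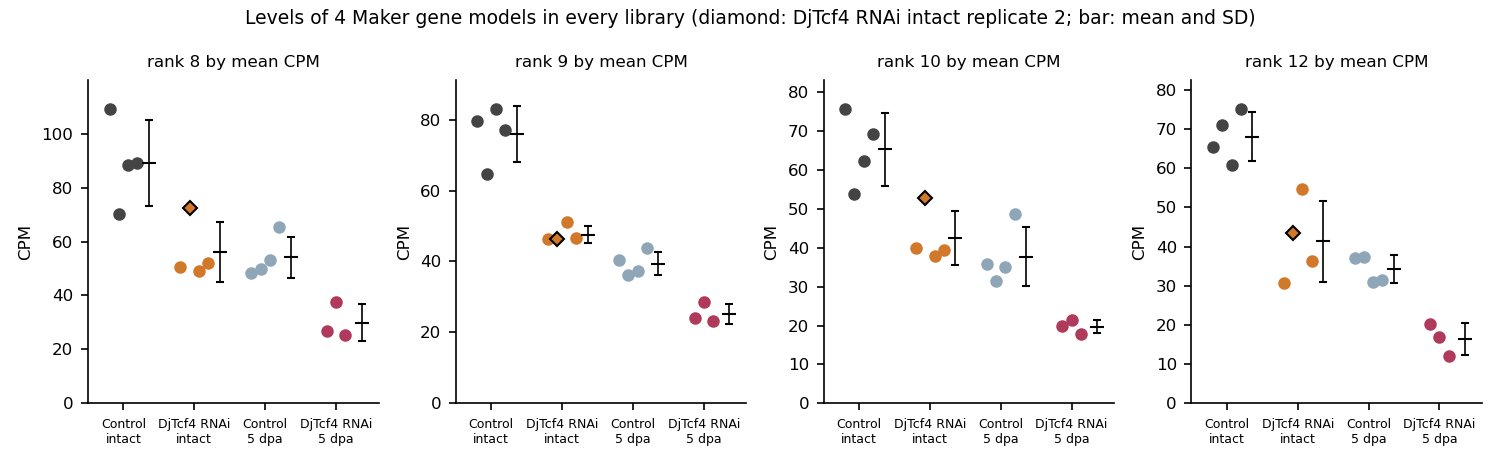
CPM of the members of ranks 8, 9, 10 and 12 in every library, by group; the diamond is DjTcf4 RNAi intact replicate 2 and bars show the mean and SD. All 4 means are highest in control intact libraries and lowest in DjTcf4 RNAi 5 dpa libraries, where they lie between 24.3% and 33.5% of control intact.

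Of the other 121 members, 108 had an RNAi log2 change within 0.5 of 0 in intact animals and 111 at 5 dpa. Their values ran from -0.78 to 0.88 in intact animals, beyond those of the 4 members in size, and from -0.76 to 0.65 at 5 dpa. The median over all 125 was 0.10 in intact animals and -0.029 at 5 dpa, beside 0.025 and -0.0019 over all tested genes. Without DjTcf4 RNAi intact replicate 2 the intact median was -0.011. In intact animals RNAi libraries lay wholly above control for 2 members and wholly below for 4, beside 1.83% and 1.58% of all genes. At 5 dpa, with 3 RNAi libraries, they lay above for 6 and below for 10, beside 2.3% and 3.37%. The members lower without overlap at both stages were ranks 9, 10 and 12, beside 0.222% of all genes and 35 of the 12833 DJKW rows (0.273%), and 0 members were higher at both, beside 0.0702% of all genes. Ranks 9, 10 and 12 are among the 4 members chosen by their RNAi calls, so their lack of overlap follows in part from that choice.

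Whether amputation changed the members differently after control and DjTcf4 RNAi was tested last. The edgeR interaction called 0 members, where 0.00585% of all genes were called, and 5 members had an unadjusted p under 0.05 (3.47% of all genes). DESeq2 and limma-voom called 0 members too (0.0248% and 0.0293% of all genes). The interaction log2 values of the members ran from -1.19 to 1.1 with a median of -0.11, and without DjTcf4 RNAi intact replicate 2 the median was 0.0040 and 0 members were called (0.0177% of all genes), with 3 at an unadjusted p under 0.05 (3.43% of all genes). For the members of ranks 8, 9, 10 and 12 the fall after amputation in control and with RNAi is given above, and their difference was not called.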

How the data were processed

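Gene-level expected counts, as deposited by the authors, were used for 15 libraries; Bowtie2, HISAT2, RSEM and DESeq2 are named in the submitters' processing notes, and the genome build is not given in the sources used here. Expected counts divide reads that match several sequences, and 8.23% of values had a fractional part. They were rounded to whole numbers for testing. Library totals were 8136366 to 12224216.

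Groups came from the labels. One edgeR 4.0.16 quasi-likelihood fit (R 4.3.3, robust, trimmed mean of M-values scaling with factors of 0.933 to 1.06) over all 4 groups gave 5 contrasts across 17094 genes that passed filterByExpr (minimum count 10, minimum total 15), called at a Benjamini-Hochberg adjusted p under 0.05. Alternatives used DESeq2 1.42.0, limma-voom (limma 3.58.1), other scalings, filters and member thresholds, a replicate block, and each library left out. The fit was also run on simulated counts, drawn separately for each gene and without an outlying library. That run does not cover the effect of DjTcf4 RNAi intact replicate 2, and no result here rests on it. No replicates were alike within sampling noise (chi-square per degree of freedom 3.56 to 66.8).

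The members and lists were chosen with earlier results of these data known. Members are named by ID where counts were whole in every library and a called change in control kept its sign after DjTcf4 RNAi: the 2 with the largest rise and the 2 with the largest fall, a place going to a member called for RNAi had there been one. The 3 most abundant members called in no comparison are also named. The next largest called changes, up to 10 a direction, are given by rank; the members of ranks 8, 9, 10 and 12 were chosen after their values were seen. Comparison with DJKW rows used 5 ranges of mean CPM and is a description without a test.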

Additional observations from a re-analysis of the deposited data

Results flagged for a closer look

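Among 90 group values examined, 11 had a highest or lowest library far from the rest of its group. For independent values chance gives about 1 in 20, but these values share libraries, so the 11 are not read as an excess over chance. The DjTcf4 RNAi 5 dpa group, with 3 libraries, was not examined. DjTcf4 RNAi intact replicate 2 held the highest value of 30 members, against 4 in each other library of its group. Control RNAi 5 dpa replicate 2 held the highest value of 21 members, against 2 to 5 in the others.

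In DjTcf4 RNAi intact replicate 2 the member of rank 110 stood at 4.59 CPM (others 2.66 to 2.79), rank 34 at 32.3 CPM (18.1 to 20), rank 8 at 72.5 CPM (49.2 to 52), rank 10 at 52.8 CPM (38 to 39.9) and rank 1 at 384 CPM (250.02 to 272). In replicate 3 of the same group rank 9 stood at 51.2 CPM (46.2 to 46.5).

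Control RNAi 5 dpa replicate 2 held 147 CPM of rank 4 (182 to 185 in the others), and control RNAi 5 dpa replicate 1 held 17 CPM of rank 41 (13.4 to 14). Control RNAi intact replicate 1 held 2.98 CPM of rank 108 (1.61 to 1.73).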

How the results depend on the processing

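Counts of members called for RNAi in intact animals (0 in the report) were 1 with DESeq2 size factors, 1 with library size alone, 4 with DESeq2 and 4 with limma-voom, and 0 to 3 when each library was left out in turn. All were called lower. In these settings 0.0234%, 0.0234%, 0.199% and 0.222% of all genes were called lower, and 0.136% where 3 members were. At 5 dpa (0 in the report) they were 1 with library size alone, 2 without the filter, 2 with the compared groups alone, 4 with DESeq2, 4 with limma-voom, and 0 to 4 with a library left out. All were again called lower. In these settings 0.0585%, 0.0568%, 0.0815%, 0.31% and 0.234% of all genes were called lower, and 0.148% without the library whose removal gave 4. DESeq2 gave no adjusted p for 4 members at 5 dpa. After amputation in control (34) they were 56 with limma-voom, 9 at 2-fold or more, 73 of 333 members with a mean of at least 1 CPM, 21 of 47 with at least 10 CPM, 17 of 84 with whole counts, and 23 (without control intact replicate 4) to 47 with a library left out. After amputation with DjTcf4 RNAi (17) they were 48 with limma-voom, 7 with the compared groups alone, 5 at 2-fold or more, 39 with a mean of at least 1 CPM, 11 with whole counts, and 9 to 41 with a library left out. There limma-voom called 40.9% of all genes, and the fits that gave 9 and 41 called 5.99% and 36.6%. Shares for the compared groups alone, the 1 CPM threshold and whole counts are not given here, so those counts are not results about the members. The interaction gave 0 in all of these. The members' share called in control less that of DJKW rows (-1.62 percentage points) was 8.90 at a mean of at least 10 CPM, -8.29 for whole counts, -3.36 against the 5 nearest DJKW rows, and -3.05 to 2.66 with a library left out, so its sign was not stable. DJKW rows weighted to the members' mean CPM also shifted in control. With limma-voom 44.8% of members and 45.6% of DJKW rows were called, and at a mean of at least 1 CPM 21.9% and 21.8%. Without control intact replicate 4 the shares were 18.4% and 18.0%, and without DjTcf4 RNAi intact replicate 2 they were 37.6% and 39.0%. The causes of these shifts were not tested.

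With a replicate block the counts were 0 and 0 for RNAi, 34 and 14 for amputation in control and after DjTcf4 RNAi, and 0 for the interaction. The shares of all genes called for amputation with the block are not given here. Of 21 same-numbered pairs of libraries, 4 deviated together at a correlation over 0.1 (range -0.33 to 0.30). No comparison with differently numbered pairs is given, so whether replicate numbers pair the libraries was not tested. Most members had under 10 CPM, which limits the changes that could be detected with 3 or 4 libraries a group.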
